A study of Mus musculus with 11 samples.

Results

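Total RNA was compared between 3 retina samples that had lost Six3 and Six6 together (DKO) and 3 control samples (WT), all from NMRI mouse embryos at E13.5. These 6 samples were chosen from the 11 of the series by the genotype that heads each column of the count table, and all genes that could be tested are described. WT embryos were Six3F/F with Six6+/+ and had no Cre, so that their Six3 alleles were floxed but intact. DKO embryos were Six3F/F with CAGGCre-ERTM and Six6-/-. The Cre is driven by a promoter active in nearly all cells and carries a piece of the estrogen receptor that keeps it inactive until tamoxifen is given, whereas the Six6 alleles were null from conception. Tamoxifen (20 mg/mL, 0.15 mL each time) was given to dams of all groups at E10.5 and E11.5. Single mutants are used beside some results, namely Six3KO (Six3F/F, CAGGCre-ERTM, Six6+/+, 3 libraries) and Six6KO (Six3F/F, Six6-/-, no Cre, 2 libraries). Each sample held a pair of retinas, and the design text calls the samples biological replicates.

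Six3 and Six6 are closely related homeodomain transcription factors that begin to act in the eye field and stay on in retinal progenitors, the dividing cells from which all retinal neurons come. Six3 is known mainly as a repressor, of Wnt genes among others, and both factors help to keep progenitors dividing and able to form neurons. In the mouse retina at this stage, progenitors share the tissue with the first ganglion cells, cones, horizontal cells and amacrine cells, while the margin will give rise to the ciliary body and iris.

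The libraries held 7807744 to 12505379 reads in genes in WT and 11965016 to 12659540 in DKO. Levels are given as CPM, a gene's reads relative to all reads of its library after scaling, which are not corrected for gene length and so are compared for 1 gene between samples and not between genes. Six3 stood at 164, 299 and 223 CPM in the WT libraries rh016, rh023 and rh024, and at 57.3, 56.2 and 98.2 CPM in the DKO libraries rh010, rh011 and rh021. Six6 stood at 225, 340 and 277 CPM in WT and at 56.0, 52.8 and 99.8 CPM in DKO. Every DKO library thus lay below every WT library for both targeted genes, as the labels say, and rh021 had the highest CPM of both. The Six6KO libraries, also null for Six6, held 131 and 76.8 CPM of it, so its reads cannot be taken as intact Six6. In edgeR Six6 passed an adjusted p of 0.05 (log2 fold change -2.01 ± 0.36, SE, adjusted p = 0.0342). Six3 did not (-1.70 ± 0.43, adjusted p = 0.106), though it passed in DESeq2 (adjusted p = 0.00121). On the opposite strand, exons of Six3 overlap Six3os1 and Gm28528, and those of Six6 overlap 4930447C04Rik, so their reads may be shared. Retinal progenitor genes were present in both groups, for example Pax6, a homeodomain factor of progenitors, whose mean was 720 ± 127 CPM over the WT and 1017 ± 95.3 CPM over the DKO libraries (SD, n = 3 each).

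DKO differed from WT in a small share of the transcriptome, and much of it by large amounts. Of 13292 genes tested, 172 (1.29%) passed an adjusted p of 0.05 in edgeR, 87 higher in DKO (0.655%) and 85 lower (0.639%). Their libraries did not overlap in any of the 172, whereas over all genes tested 17.5% had no overlap, 9.03% with DKO higher and 8.46% with DKO lower. The median log2 fold change over all genes was -0.0036, 5% of genes lay below -1.47 and 5% above 0.61. Among the called genes, 66 rose and 69 fell at least 2-fold, 25 rose and 36 fell at least 4-fold, and 14 rose and 9 fell at least 8-fold. Summed over the 87 genes that rose, the level went from 5249.8 CPM in WT to 12744 CPM in DKO, and over the 85 that fell it went from 3778 to 1372 CPM.

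The 2 directions differed in the level of their genes. In the highest quartile of genes by mean CPM of the 6 libraries, 38 rose and 10 fell, while in the lowest quartile 12 rose and 38 fell. This mean includes DKO, so a rise lifts a gene's place and a fall lowers it. In WT alone, the median level was 33.6 CPM for the genes that rose and 20.5 CPM for those that fell. The share called was near the overall 1.29% in each quartile, at 1.50% in the lowest, then 1.32%, 0.903% and 1.44% in the highest. The median fold of the called genes was 2.37 for those that rose and 3.43 for those that fell. In WT, 8 of the genes that rose had a WT mean under 1 CPM, among them Dbx1, Car5b, Rfx4, Nwd2, Rit2 and Wnt3a. In DKO, 11 of the genes that fell had a mean under 1 CPM, among them Dio3, Shh and Gnb3.

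The threshold left out genes of large but variable difference, and 1 library could move the count widely. At an unadjusted p under 0.05, 727 genes were higher and 1001 lower, and 357 and 973 genes differed at least 2-fold without regard to the test. The SD of log2 levels within a group had a median of 0.256 over genes in WT and 0.128 in DKO, and it was larger in WT for 79.3% of genes. Without DKO library rh010, 20 genes were called, and 25 were without rh011 and 205 without rh021. Without WT library rh016, rh023 or rh024, 45, 59 and 61 genes were called. With DESeq2 on the same libraries, the tool that the design text names, 773 genes (5.82%) were called, 310 higher (2.33%) and 463 lower (3.48%).

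**Figure D1:**
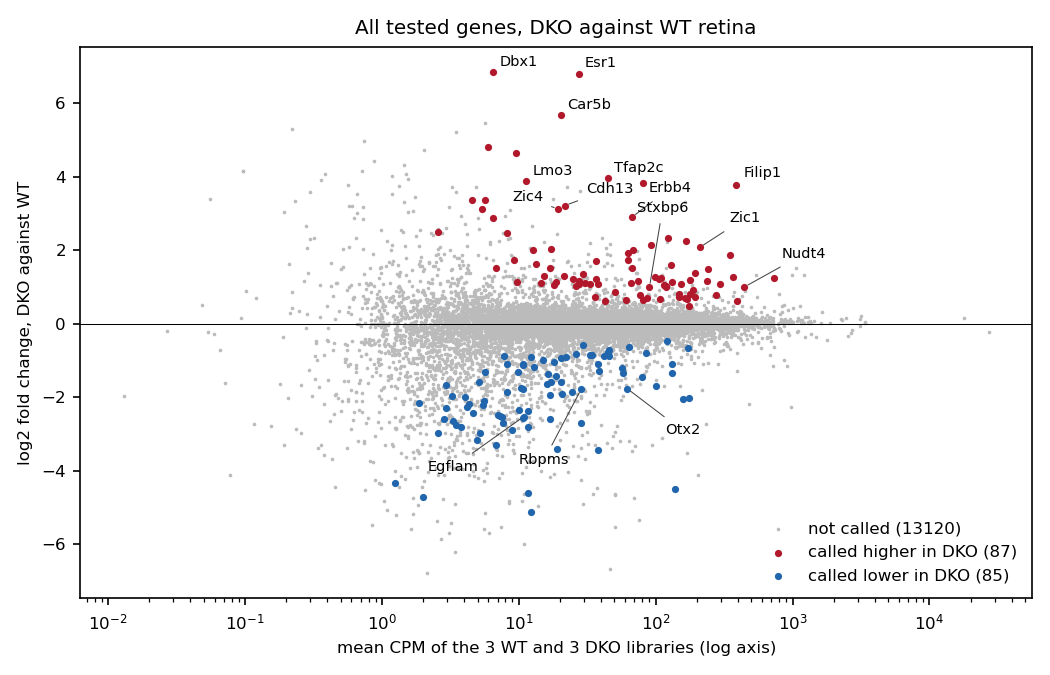
Each point is 1 of 13292 tested genes, with the mean CPM of the 6 libraries on the horizontal log axis and the log2 fold change of DKO against WT on the vertical axis. Coloured points are the 87 genes called higher and 85 called lower, and the labelled genes are 15 that were called under every alternative setting.

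The clearest changes were found in 15 genes that stayed called in all 17 alternative fits, including every fit without 1 library. These 15 were picked out after their values were seen. In DKO 12 of them rose: Filip1, Erbb4, Cdh13, Zic1, Zic4, Tfap2c, Dbx1, Lmo3, Car5b, Stxbp6, Nudt4 and Esr1. The other 3, Otx2, Rbpms and Egflam, fell. Esr1 is a special case, since the Cre carries part of the estrogen receptor that this gene encodes.

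Filip1 encodes a protein that binds filamin and, in the rat, holds back the migration of cortical neurons. It stood at 38.7, 56.4 and 62.3 CPM in WT and at 818, 794 and 535 CPM in DKO. The lowest DKO library was 8.53-fold above the highest WT library on CPM plus 0.5, and the log2 fold change was 3.77 ± 0.23 (SE, adjusted p = 0.000135). Both single mutants stood between, at 118, 121 and 95.8 CPM in Six3KO and 120 and 118 CPM in Six6KO, all below the DKO libraries. Filip1 lies on chromosome 9, 79815051 to 80012851, minus strand (GRCm38).

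Erbb4, a receptor tyrosine kinase for neuregulins, and Cdh13, a cadherin held in the membrane by a lipid anchor, followed the same order of groups. Erbb4 stood at 13.3, 17.8 and 16.6 CPM in WT and at 125, 154 and 76.9 CPM in DKO (log2 fold change 2.91 ± 0.24, adjusted p = 0.00111). In the single mutants Erbb4 lay between 30.2 and 36.7 CPM, below all DKO and above all WT libraries. Cdh13 stood at 5.31, 4.39 and 2.80 CPM in WT and at 41.4, 34.0 and 42.6 CPM in DKO (3.22 ± 0.25, adjusted p = 0.000804). Its single-mutant libraries ranged from 7.66 to 14.3 CPM and again overlapped neither group.

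Transcription factors and a cofactor made up a further part of the stable rises. Dbx1, a homeodomain factor of interneuron progenitors in the brain and spinal cord, was nearly silent at 0.156, 0.116 and 0 CPM in WT and reached 15.5, 15.2 and 8.01 CPM in DKO. No single-mutant library held more than 0.303 CPM of it. Tfap2c, the AP-2 gamma factor, went from 8.52, 2.78 and 4.59 CPM to 84.0, 108 and 61.3 CPM (3.96 ± 0.39, adjusted p = 0.0028). Lmo3, a LIM-only cofactor, went from 2.27, 1.16 and 0.765 CPM to 23.3, 27.2 and 13.6 CPM (3.88 ± 0.44, adjusted p = 0.00497). In each of these genes rh021 was the lowest DKO library and still lay above every other group.

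Zic1 and Zic4, zinc finger factors of the dorsal neural tube, lie side by side on chromosome 9 and rose together. Zic1 stood at 65.3, 87.3 and 88.9 CPM in WT and at 379, 378 and 265 CPM in DKO (2.08 ± 0.20, adjusted p = 0.00257). Zic4 stood at 4.06, 5.09 and 2.80 CPM in WT and at 38.4, 39.3 and 26.7 CPM in DKO (3.12 ± 0.35, adjusted p = 0.00472). The single mutants ranged from 89.2 to 136 CPM for Zic1 and from 4.60 to 9.89 CPM for Zic4, below all DKO libraries in both cases. The genes overlap on opposite strands, and the sources used here do not say whether counting used strand, so their reads cannot be told apart where they overlap.

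The remaining stable rises were enzymes and a vesicle protein. Car5b, a mitochondrial carbonic anhydrase, went from 1.41, 0.116 and 0.637 CPM in WT to 45.5, 41.7 and 32.9 CPM in DKO (5.68 ± 0.55, adjusted p = 0.00257), and its highest single-mutant value was 3.53 CPM. Nudt4, which removes phosphate from inositol pyrophosphates, went from 277, 310 and 302 CPM to 556, 609 and 610 CPM (1.00 ± 0.11, adjusted p = 0.00389). Stxbp6, which binds syntaxin, went from 56.6, 59.7 and 64.7 CPM to 123, 120 and 117 CPM (0.99 ± 0.09, adjusted p = 0.00243). The changes of Nudt4 and Stxbp6 were modest, and their replicates lay so close together that the groups stayed well apart.

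Among the stable falls, Otx2 encodes the homeodomain factor that photoreceptors and bipolar cells need. It stood at 105, 88.8 and 93.7 CPM in WT and at 27.7, 30.8 and 25.8 CPM in DKO (-1.77 ± 0.14, adjusted p = 0.00107). Rbpms, an RNA-binding protein used as a ganglion cell marker, fell from 46.7, 47.3 and 39.0 CPM to 10.6, 14.3 and 13.9 CPM (-1.78 ± 0.17, adjusted p = 0.00243). Egflam, the matrix protein pikachurin of the photoreceptor synapse, fell from 15.4, 17.8 and 22.4 CPM to 3.44, 2.57 and 3.57 CPM (-2.53 ± 0.25, adjusted p = 0.0028). In bulk tissue, fewer cells of a type and less RNA per cell cannot be told apart. The single mutants lay above all DKO libraries in these 3 genes, at 55.6 CPM or more for Otx2, 29.3 or more for Rbpms and 12.7 or more for Egflam. For Otx2 they reached 88.7 CPM, just below the lowest WT library (88.8 CPM). For Egflam they reached 23.9 CPM, above all WT libraries. All 3 DKO libraries lay close together in each of the 3 genes. Exons of Otx2 overlap Otx2os1 and Gm49154, so its reads may be shared.

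**Figure D2:**
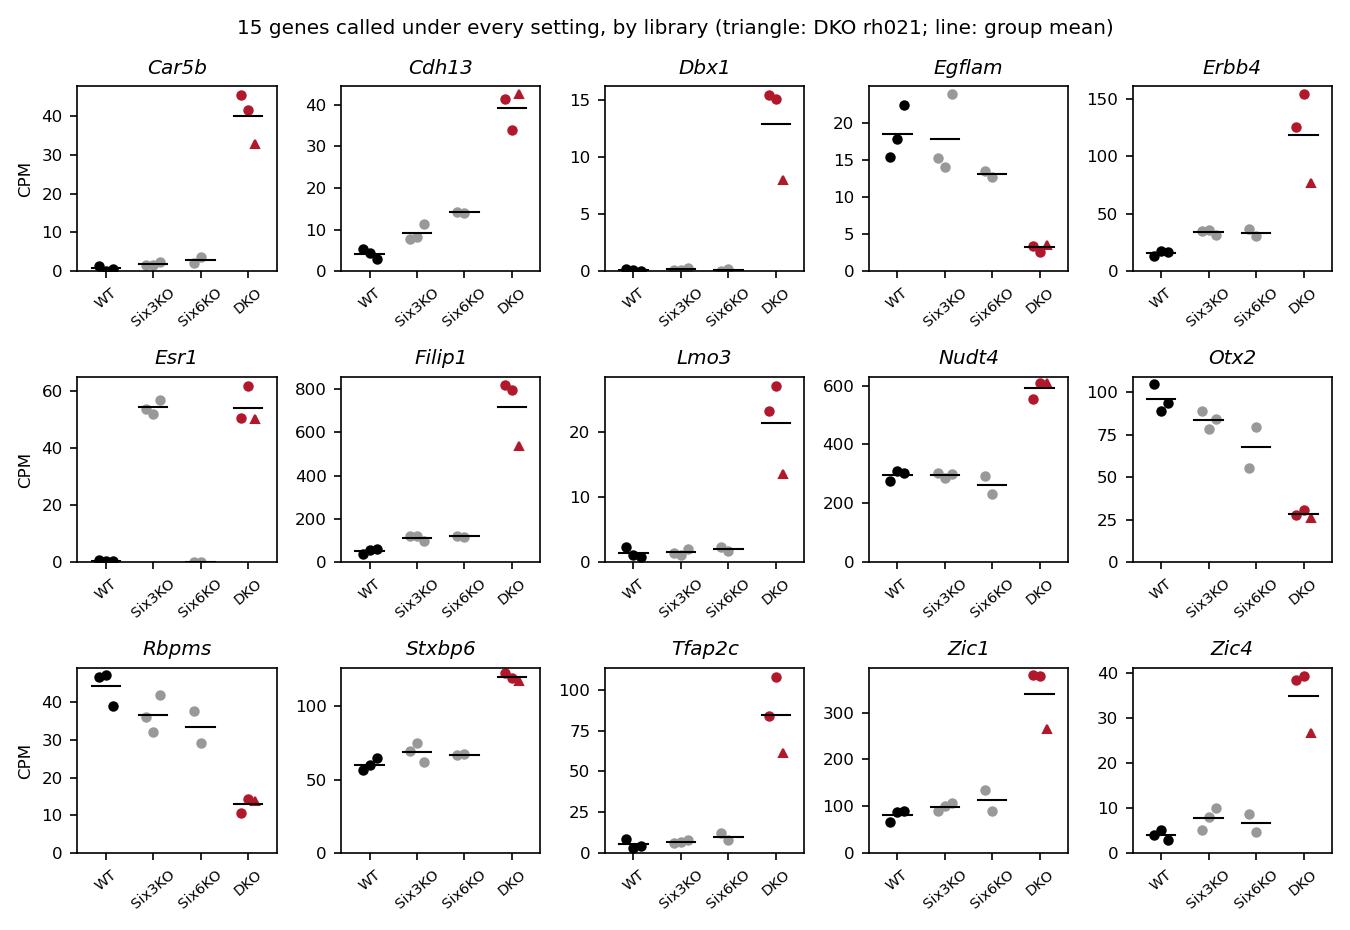
CPM (vertical axes, from 0) in each library of the 4 groups for the 15 genes called under every setting, with lines at the group means and a triangle for DKO library rh021. Filip1 ran from 535 to 818 CPM in DKO against 62.3 CPM or less in WT, and Esr1 was high in all Six3KO and DKO libraries, which carry Cre.

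Promoter sequences are shown for Filip1, whose mean rose by the most CPM among the called genes, for the neighbours Zic1 and Zic4, which moved together, and for Otx2, which fell. They run from 250 bases before to 50 after the start of transcription in RefSeq (GRCm38.p6) and read along the gene's strand, with TAATTA, a core that many homeodomain factors bind, in capitals. The windows are chr9:80012802-80013101 (minus strand) for Filip1, chr9:91365719-91366018 (minus) for Zic1, chr9:91368722-91369021 (plus) for Zic4 and chr14:48667595-48667894 (minus) for Otx2.
Filip1: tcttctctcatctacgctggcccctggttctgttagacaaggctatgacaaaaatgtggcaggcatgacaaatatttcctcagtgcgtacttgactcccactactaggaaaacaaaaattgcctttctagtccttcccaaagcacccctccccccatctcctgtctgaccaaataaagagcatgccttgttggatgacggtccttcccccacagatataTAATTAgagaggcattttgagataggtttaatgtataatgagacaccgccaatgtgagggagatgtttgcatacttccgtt
Zic1: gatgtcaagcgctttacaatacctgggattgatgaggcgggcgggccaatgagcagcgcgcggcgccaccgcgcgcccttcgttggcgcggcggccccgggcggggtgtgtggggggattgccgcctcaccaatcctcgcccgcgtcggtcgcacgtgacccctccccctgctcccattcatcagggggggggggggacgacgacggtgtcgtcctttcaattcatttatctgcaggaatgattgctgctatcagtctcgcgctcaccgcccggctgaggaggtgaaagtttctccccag
Zic4: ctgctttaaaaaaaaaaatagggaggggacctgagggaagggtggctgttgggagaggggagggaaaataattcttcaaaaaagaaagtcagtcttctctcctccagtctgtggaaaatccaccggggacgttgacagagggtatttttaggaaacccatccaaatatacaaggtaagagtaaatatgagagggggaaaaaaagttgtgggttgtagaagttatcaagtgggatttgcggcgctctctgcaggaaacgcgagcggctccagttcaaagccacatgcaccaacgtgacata
Otx2: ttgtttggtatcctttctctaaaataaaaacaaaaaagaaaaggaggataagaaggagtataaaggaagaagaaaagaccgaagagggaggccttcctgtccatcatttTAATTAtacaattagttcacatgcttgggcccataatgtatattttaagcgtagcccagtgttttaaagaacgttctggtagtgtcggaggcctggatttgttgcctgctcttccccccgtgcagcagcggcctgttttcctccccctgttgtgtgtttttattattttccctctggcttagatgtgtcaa
The windows of Filip1 and Otx2 each held 1 such core, and those of Zic1 and Zic4 held none. Neither TGATAC, a core bound by the family of Six3 and Six6, nor TAATCC, the core bound by Otx factors, was found on either strand in any of the 4.

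How often these cores occur was counted as a description. A window was matched by symbol for 10179 of the tested genes, 69 of the 87 that rose and 58 of the 85 that fell. Both strands were searched. TGATAC was in 1.45% of the windows of genes that rose, 1.72% of those that fell and 2.68% of all. TAATTA, which reads the same on both strands, was in 4.35%, 1.72% and 2.31%, and TAATCC in 8.70%, 3.45% and 5.23%. The last 2 motifs share their first letters and can overlap, and a match in these letters is not a bound site.

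The 3 DKO libraries did not lie equally far from WT. Among the genes that rose, rh021 was the DKO library nearest to WT in 72 of 87 (82.8%), and among those that fell in 61 of 85 (71.8%), against 46.8% of all genes tested. The median log2 distance from the WT mean was 1.28, 1.36 and 1.04 in rh010, rh011 and rh021 for the genes that rose, and -1.96, -1.73 and -1.39 for those that fell. Rfx4, a winged-helix factor of the brain, showed the pattern, with 20.1, 28.6 and 6.42 CPM in these libraries against 0.625 to 0.809 CPM in WT. Tmem132b, which was picked out by its values, had 194, 197 and 65.8 CPM against 6.02 to 14.9 CPM in WT. In rh021 the reads of Six3 and Six6 were the highest of the DKO group, although the Six6 alleles were null in all DKO samples. The part of Six3 and Six6 in these values was not tested.

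Few transcription factors of any 1 family were called, and they went both ways. Of 348 members of 7 factor families, 9 rose and 6 fell (4.31%, against 1.29% of all genes), and their median log2 fold change was -0.18, while DESeq2 called 27 higher and 44 lower (20.4%, against 5.82%). Among the risers were Dbx1, Tfap2c, Zic1, Zic4, Glis3, Rfx4, Npas3 and Nr2f2, and those that fell were Otx2, Irx3, Irx5, Sox8, Klf6 and Six6 itself. Without rh010, rh011, rh016, rh023 or rh024, the count was 6, 6, 6, 10 and 9, and without rh021 it was 25 (7.18%, of which 10 rose). Over all 13277 to 13298 genes tested, these fits called 20, 25, 45, 59 and 61, and 205 without rh021. Chromatin regulators, a group of 109 genes, had no called member in edgeR, 8 at an unadjusted p under 0.05, 2 called by DESeq2 and a median of 0.0040.

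The called zinc finger factors were mostly higher and the called homeodomain factors mostly lower, although both lists had medians below 0 (-0.15 and -0.32). In the zinc finger group edgeR called 4 of 72 higher and 1 lower (DESeq2 8 and 5), in the homeodomain group 1 of 83 higher and 4 lower (DESeq2 7 and 16), and in the 23 forkhead genes none was called by edgeR (8 at an unadjusted p under 0.05, and 3 by DESeq2). Glis3, a zinc finger factor of the Gli-related family, was at 25.6, 25.9 and 26.8 CPM in WT and 130, 101 and 68.3 CPM in DKO (1.94 ± 0.20, adjusted p = 0.00336), and kept its call without each library in turn. Nr2f2, the nuclear receptor COUP-TFII, rose from 81.4, 66.0 and 92.3 CPM to 160, 182 and 134 CPM (0.99 ± 0.18, adjusted p = 0.0342). Npas3, a factor of the brain, rose from 17.3, 21.7 and 24.5 CPM to 49.8, 50.6 and 34.6 CPM (1.09 ± 0.19, adjusted p = 0.0299). Both groups of libraries were separate for each of these genes, but the calls of Nr2f2, Npas3 and Rfx4 held in only 1 of the 6 fits without a library.

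The homeodomain genes Irx3 and Irx5, of the Iroquois family, both fell, as did Sox8. Irx3 went from 40.6, 18.8 and 45.6 CPM to 1.89, 4.14 and 3.88 CPM (-3.40 ± 0.54, adjusted p = 0.0236), and Irx5 from 38.5, 18.5 and 30.1 CPM to 2.87, 4.47 and 7.06 CPM (-2.60 ± 0.43, adjusted p = 0.0274). WT library rh023, poorest in mesenchyme markers, was the lowest of its group for both and still stood 4.17-fold above the highest DKO library for Irx3 on CPM plus 0.5. Sox8, an HMG factor, fell from 10.3, 16.1 and 11.1 CPM to 0.738, 2.07 and 3.65 CPM (-2.53 ± 0.46, adjusted p = 0.0381). With the mesenchyme score as a covariate the log2 fold changes of Irx3 and Sox8 were -2.13 and -2.75 and both stayed called. Without single libraries the adjusted p of Irx3 ran from 0.0324 to 0.134 and that of Sox8 from 0.0162 to 0.185, and Irx5 stayed called in 2 of these 6 fits.

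Signalling genes were called in both directions. Of 196 ligands, receptors and inhibitors, 7 rose and 9 fell in edgeR (8.16%, against 1.29%), with a median of -0.38, and DESeq2 called 12 higher and 31 lower (21.9%, against 5.82%). Among 73 ligands 2 rose and 1 fell, among 74 receptors 4 rose and 5 fell (12.2%), and among 49 inhibitors 1 rose and 3 fell. Without rh010, rh011, rh016, rh023 or rh024, 1, 2, 4, 2 and 5 of the 196 were called, and without rh021 12 were. Over all 13277 to 13298 genes tested, these fits called 20, 25, 45, 59 and 61, and 205 without rh021. The median of the group was 0.23 with the mesenchyme score as a covariate, so that its sign rests on this choice, while 11 genes rose and 11 fell.

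Several genes of Hedgehog signalling moved. Shh, the ligand that ganglion cells release to progenitors, was at 2.97, 6.36 and 2.29 CPM in WT and 0, 0.166 and 0.238 CPM in DKO (-4.73 ± 0.82, adjusted p = 0.0307). Hhip, which binds and holds back the ligand and whose gene is a target of the pathway, fell from 19.9, 29.7 and 8.79 CPM to 3.03, 4.64 and 3.49 CPM (-2.39 ± 0.45, adjusted p = 0.0413). Cdon, a co-receptor for the ligand, rose from 300, 423 and 571 CPM to 1158, 1131 and 801 CPM (1.26 ± 0.23, adjusted p = 0.0389). In Six3KO Shh stood at 0.605 to 0.912 CPM, below all WT and above all DKO libraries. None of these 3 calls held without every library in turn, and the adjusted p without a library ranged from 0.0461 to 0.152 for Shh and from 0.0275 to 0.189 for Cdon. Exons of Shh overlap those of 2 other genes on the opposite strand.

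Other ligands and receptors of several pathways rose. Wnt3a, a Wnt ligand, went from 1.33, 0.116 and 0.892 CPM to 9.43, 10.1 and 5.47 CPM (3.36 ± 0.66, adjusted p = 0.0476), and was not called in any of the 6 fits that leave out a library (adjusted p 0.0519 to 0.201). Lrp4, a receptor for agrin that also takes part in Wnt signalling, went from 46.7, 44.5 and 81.0 CPM to 338, 346 and 136 CPM (2.25 ± 0.39, adjusted p = 0.0311). Nrg1, a ligand of the receptor that Erbb4 encodes, went from 12.9, 21.9 and 23.7 CPM to 44.4, 42.7 and 38.3 CPM (1.11 ± 0.22, adjusted p = 0.0476). Ligand and receptor of the neuregulin pair were thus both higher in all 3 DKO libraries than in any WT library, although Nrg1 was called in no fit without a library (adjusted p 0.0649 to 0.218). Shisa2, which in Xenopus keeps Wnt and FGF receptors from the cell surface, rose from 75.6, 108 and 143 CPM to 308, 305 and 233 CPM. The call of Lrp4 held in 1 of the 6 fits without a library (highest adjusted p 0.152) and that of Shisa2 in 2.

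Receptors and feedback genes that fell belonged to several other families. Kit, the receptor of stem cell factor, fell from 50.6, 63.7 and 50.3 CPM to 20.3, 19.9 and 27.4 CPM (-1.28 ± 0.20, adjusted p = 0.0236). Kdr, the VEGF receptor of vessels that retinal progenitors also express, fell from 149, 182 and 204 CPM to 77.1, 80.7 and 92.4 CPM (-1.09 ± 0.18, adjusted p = 0.0274). With the blood vessel score, to which it contributes, as a covariate, the log2 fold change of Kdr was -1.15 ± 0.18 (adjusted p = 0.00737). Lfng, which adds sugar to Notch, fell from 23.4, 29.9 and 37.8 CPM to 7.46, 9.44 and 13.4 CPM (-1.59 ± 0.25, adjusted p = 0.0236). Spry1, a feedback inhibitor of receptor tyrosine kinases, fell from 20.8, 13.6 and 15.2 CPM to 3.03, 4.72 and 6.74 CPM (-1.77 ± 0.31, adjusted p = 0.032). Lgr5, the R-spondin receptor, and Lifr, the LIF receptor, fell by 1.86 and 0.89 on the log2 scale. Each of these 6 calls was lost in at least 4 of the 6 fits without a library.

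Genes of neurons were called in 16 of 319 cases by edgeR (5.02%, against 1.29%), 6 higher and 10 lower, with a median of -0.21, and DESeq2 called 24 higher and 39 lower (19.7%, against 5.82%). Guidance genes had 1 riser and 3 that fell among 69, cadherins 3 and 2 among 73, ion channels 2 and 3 among 94, and synaptic vesicle genes none and 2 among 41. No neurotransmitter receptor of 42 was called by edgeR (15 at an unadjusted p under 0.05, and 9 by DESeq2). Without rh010, rh011, rh016, rh023 or rh024, the count for all 319 was 1, 1, 1, 2 and 4, and without rh021 it was 12. Over all 13277 to 13298 genes tested, these fits called 20, 25, 45, 59 and 61, and 205 without rh021.

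The neuronal genes that fell included release and guidance genes. Doc2b, a calcium sensor of vesicle release, went from 12.1, 14.3 and 9.81 CPM to 1.39, 2.40 and 2.62 CPM (-2.49 ± 0.40, adjusted p = 0.0236), and Sv2c, a vesicle protein, from 9.53, 17.2 and 11.6 CPM to 2.13, 2.82 and 5.55 CPM (-1.86 ± 0.38, adjusted p = 0.0496). Nrp1, the semaphorin and VEGF co-receptor, stood at 119, 102 and 103 CPM in WT and at 54.7, 65.2 and 66.1 CPM in DKO (-0.80 ± 0.14, adjusted p = 0.0342). Cdhr1, a cadherin-like protein of photoreceptors, went from 14.1, 20.2 and 12.9 CPM to 0.984, 1.82 and 3.49 CPM (-2.90 ± 0.55, adjusted p = 0.042). Both Six6KO libraries were also low for Cdhr1, at 4.76 and 3.85 CPM, whereas Six3KO stood at 5.35 to 20.3 CPM. Islr2, a membrane protein of growing axons, fell from 252, 342 and 177 CPM to 45.3, 72.2 and 68.4 CPM (-2.05 ± 0.41, adjusted p = 0.0486), and its exons overlap Islr. Of these 5 calls, Doc2b held in 2 of 6 fits without a library, Cdhr1 and Sv2c in 1, and Nrp1 and Islr2 in none.

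Among the neuronal genes that rose was the potassium channel Kcnh5, at 6.72, 6.36 and 6.50 CPM in WT and between 17.0 and 25.0 CPM in DKO (1.64 ± 0.31, adjusted p = 0.0395). Cdh9 and Pcdh9, adhesion molecules of neurons, rose by 1.51 ± 0.27 and 1.21 ± 0.23. Kcnh5, Cdh9 and Pcdh9 each kept their groups apart, and Cdh13 was the 1 gene of the neuronal group called without each library in turn. Cntnap2, a neuronal adhesion molecule chosen after its values were seen, rose from 46.0, 49.3 and 26.9 CPM to 213, 229 and 177 CPM (2.34 ± 0.30, adjusted p = 0.0102).

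Rises of genes with high counts fell outside the families above. Rmst, a long noncoding RNA of neural tissue, went from 105, 174 and 167 CPM to 629, 617 and 393 CPM (1.88 ± 0.26, adjusted p = 0.0144). Mab21l2, which mouse eyes need in order to form, went from 192, 236 and 218 CPM to 555, 551 and 465 CPM (1.28 ± 0.16, adjusted p = 0.00848), and its single exon lies within Lrba on the other strand. Ptprk, a receptor phosphatase, went from 122, 102 and 152 CPM to 399, 376 and 289 CPM (1.50 ± 0.19, adjusted p = 0.0089). All DKO libraries of these 3 genes lay above all 8 other libraries of the series, as did those of 4.21% of all genes tested. Irs1, which links the insulin receptor to its kinases, and Mtus1, a microtubule protein, rose by 1.09 ± 0.21 and 1.17 ± 0.19 (adjusted p = 0.042 and 0.0263). Without rh010 the calls of all 5 were lost, with an adjusted p of 0.055 for Mab21l2, 0.0765 for Rmst, 0.0572 for Ptprk, 0.203 for Irs1 and 0.141 for Mtus1. Without rh011 all but that of Mab21l2 were lost as well.

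Matrix genes lay mostly below 0, as did markers of the mesenchyme that makes much of the matrix around the eye. Of 109 collagens and other matrix genes, edgeR called 4 lower and 0 higher (3.67%, against 0.639% of all genes lower), 45 had an unadjusted p under 0.05, 87 lay below 0 and the median was -1.08. DESeq2 called 26 of them lower and 4 higher (27.5%, against 5.82%). Frem1, a basement membrane protein, went from 105, 73.4 and 31.6 CPM to 3.93, 8.45 and 7.06 CPM (-3.43 ± 0.62, adjusted p = 0.0373). Lama1, a laminin chain of the inner limiting membrane, went from 81.4, 124 and 145 CPM to 32.4, 40.5 and 54.8 CPM (-1.46 ± 0.24, adjusted p = 0.0274), and the protease gene Adamts4 from 24.4, 31.7 and 22.2 CPM to 8.69, 6.29 and 10.9 CPM (-1.60 ± 0.26, adjusted p = 0.0263). Col1a1, a fibrillar collagen of mesenchyme, went from 258, 126 and 407 CPM to 5.57, 17.6 and 11.6 CPM (-4.51 ± 0.86, adjusted p = 0.0475). With the mesenchyme score as a covariate the median of the list was 0.42. Col1a1 and Frem1 were then at -2.93 and -2.82 and no longer called, and Lama1 and Adamts4 were at -1.49 and -1.68 and stayed called. Col1a1 contributes to that score, so part of its shift is built in. Without a library 0 to 3 genes of the list were called lower, among 4 to 87 called lower over all genes.

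Of 18 genes that set the supply of thyroid hormone and retinoic acid, edgeR called 2 lower (11.1%, against 0.639% of all genes). DESeq2 called 5 lower and 1 higher (33.3%, against 5.82%). Dio3, the deiodinase that inactivates thyroid hormone, went from 21.7, 35.0 and 15.4 CPM to 0.328, 0.0828 and 1.59 CPM (-5.14 ± 0.82, adjusted p = 0.0255). Its neighbour Dio3os, which lies 895 bases away on the other strand, went from 13.9, 28.0 and 25.4 CPM to 0.082, 0.248 and 2.38 CPM (-4.60 ± 0.92, adjusted p = 0.0494). Both are on the list of imprinted genes, in which these 2 of 43 tested were called (4.65%, against 1.29%). Crabp1, which binds retinoic acid in the cytoplasm, went from 212, 183 and 170 CPM to 58.1, 74.8 and 90.6 CPM (-1.34 ± 0.25, adjusted p = 0.042). For Dio3 and Dio3os rh021 was the highest DKO library, and the highest adjusted p without a library was 0.152 and 0.218. Crabp1 stayed called in 1 of the 6 fits without a library (highest adjusted p 0.215), and its adjusted p with the mesenchyme score as a covariate was 0.0638.

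Genes outside these lists also fell. Tle3, a Groucho corepressor, went from 119, 151 and 191 CPM to 41.2, 43.8 and 56.4 CPM (-1.70 ± 0.23, adjusted p = 0.0137). Espn, an actin-bundling protein, went from 10.6, 14.8 and 11.6 CPM to 0.902, 0.663 and 2.14 CPM (-3.30 ± 0.41, adjusted p = 0.00889). Ptprt, a receptor phosphatase of the same family as that of Ptprk, went from 16.3, 14.6 and 24.6 CPM to 3.03, 3.31 and 3.01 CPM (-2.56 ± 0.32, adjusted p = 0.00848). Ptprk thus rose where Ptprt fell, each with no overlap between groups. Without rh010 the calls of all 3 were lost (adjusted p = 0.0653 for Espn, 0.092 for Tle3 and 0.0653 for Ptprt), and without rh011 those of Tle3 and Ptprt (0.0861 and 0.0514).

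Calls that lay side by side on a chromosome mostly shared a direction. Within 100 kb, Dio3os and Dio3, Lifr and Egflam (8630 bases apart on chromosome 15), Ntng2 and 6530402F18Rik, and Crnde and Irx5 (1504 bases apart on chromosome 8) fell together, and Zic1 and Zic4 rose together. Iqgap2, a scaffold protein, rose by 0.81 and its neighbour Sv2c fell by 1.86 on the log2 scale, 62671 bases apart on chromosome 13. Kit and Kdr, both lower, lie 276104 bases apart on chromosome 5. Exons of Ntng2 and 6530402F18Rik overlap on the same strand, so their reads are not independent.

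Genes that every cell uses were flat, whereas replication genes leaned lower. Of 345 genes of ribosomes, the respiratory chain, the proteasome and splicing, none was called in edgeR, 3 had an unadjusted p under 0.05 and 3 (0.87%) were called in DESeq2, and the median was 0.0044 with a median absolute value of 0.077. None of 94 replication and mitosis genes was called in edgeR, 16 had an unadjusted p under 0.05 and 2 were called in DESeq2. Of the 47 replication genes, 46 lay below 0 with a median of -0.27. All DKO libraries lay below all WT libraries for 17 of the 47, as for 8.46% of all genes tested. Mitosis genes had a median of -0.10. Of 31 regulators of the G1 phase 1 was called (3.23%, against 1.29%). This was Btg1, which slows division and went from 128, 116 and 132 CPM to 218, 215 and 180 CPM (0.71 ± 0.12, adjusted p = 0.0263), a call that held in 1 of the 6 fits without a library (highest adjusted p 0.149). None of 34 p53 targets and apoptosis genes was called in edgeR, with 6 at an unadjusted p under 0.05, 2 called in DESeq2 and a median of 0.015.

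In metabolism, few single genes passed, and cholesterol synthesis was low as a list. Of its 24 genes none was called in edgeR, 10 had an unadjusted p under 0.05 and 2 were called in DESeq2, 23 lay below 0 and the median was -0.52. The median was between -0.36 and -0.76 without each library, -0.76 with the mesenchyme score and -0.096 with the macrophage score as a covariate. Hmgcs1, which makes the precursor HMG-CoA, was at 929, 1138 and 599 CPM in WT and 422, 481 and 827 CPM in DKO, so that rh021 overlapped WT. Of 228 solute carriers 2 rose, a share (0.877%) near that of all genes (0.655%). They were Slc16a1, a lactate carrier, from 73.3 to 88.2 CPM in WT to 134 to 175 CPM in DKO, and Slc6a13, a GABA carrier, from 2.54 to 5.86 CPM to 11.1 to 16.3 CPM. Among junction and polarity genes Pard3b and Nectin3 rose by 1.09 ± 0.14 and 0.74 ± 0.11, and Jup fell by 0.88 ± 0.18 on the log2 scale. None of these 5 calls held in all 6 fits without a library.

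**Figure D3:**
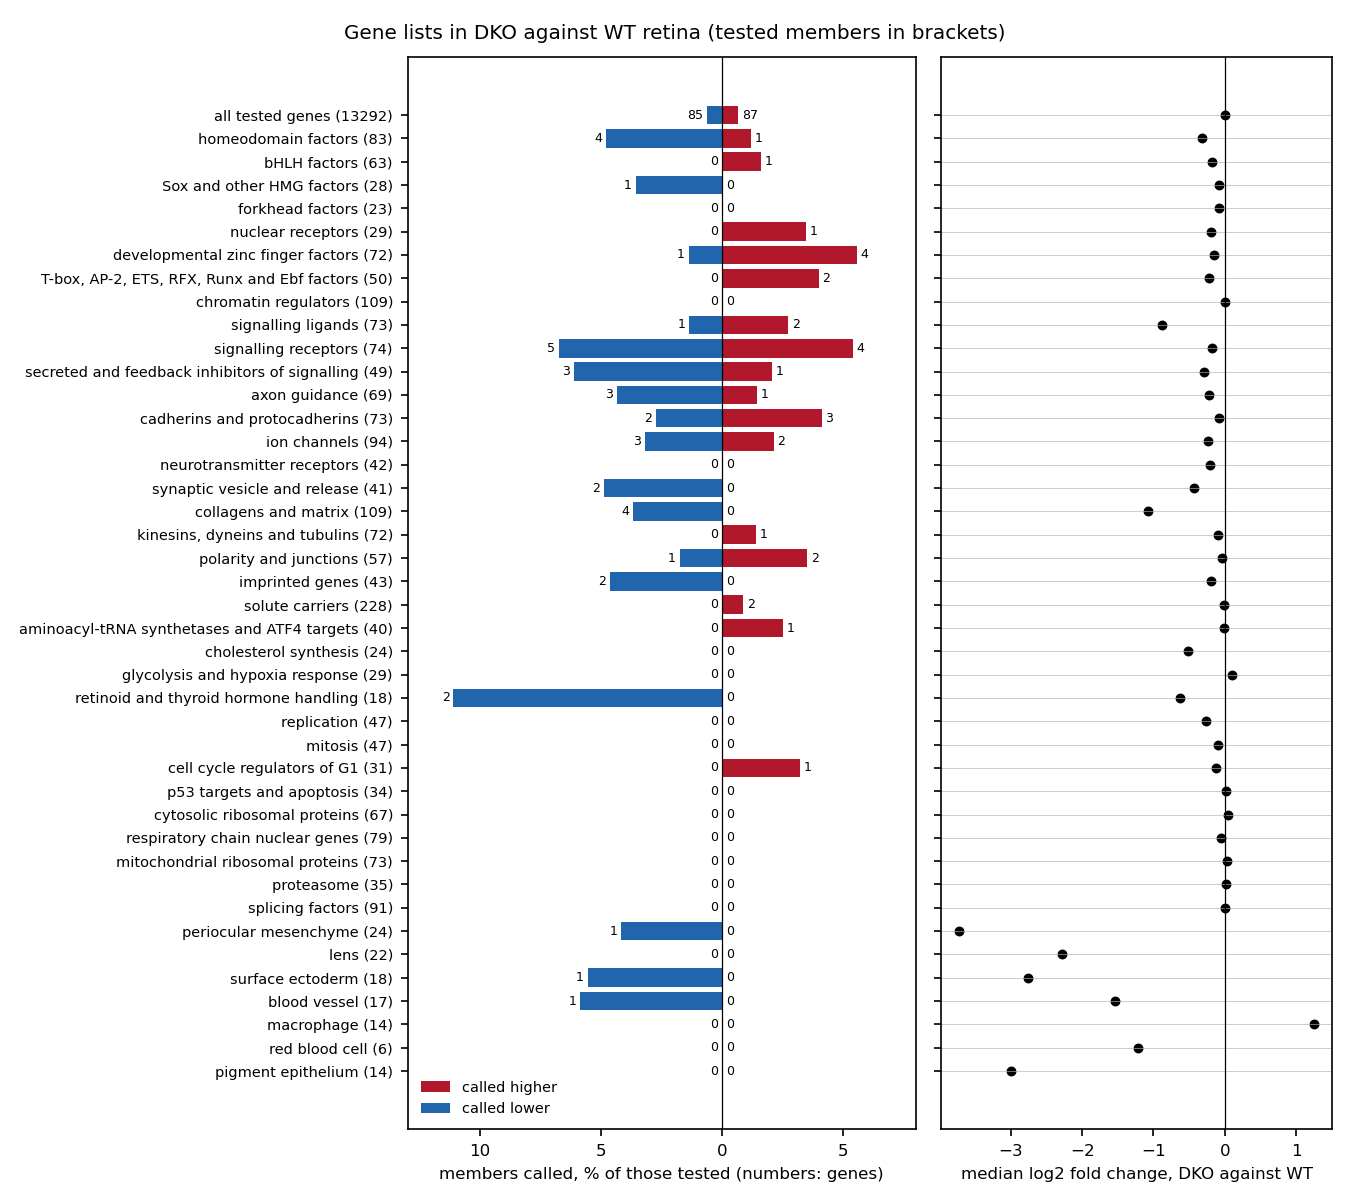
The left panel gives the share of the tested members of each list called higher (right of 0) or lower (left of 0), with the number of genes beside each bar, and the right panel the median log2 fold change of DKO against WT. All tested genes are in the top line, housekeeping lists lie at 0 in both panels, and lists of tissues that border the retina have the lowest medians.

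Cre was present in DKO and absent from WT, so joint loss and the presence of active Cre cannot be told apart in this comparison alone. Esr1 read as a marker of the Cre, at 50.6, 62.0 and 50.2 CPM in DKO, 52.0 to 57.1 CPM in Six3KO and 0.625 CPM or less in the 5 libraries without Cre. It was the 1 gene of 13292 called in Six3KO against WT (0.00752%). For the genes that rose in DKO against WT, the median log2 difference was 1.05 for DKO minus Six3KO, both with Cre, 0.21 for Six3KO minus WT and 0.15 for Six6KO minus WT. For the genes that fell, the same medians were -1.51, -0.19 and -0.35. These contrasts share libraries with DKO against WT and are not independent of it.

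Named genes can be set against Six3KO one at a time, where both groups carry Cre. Filip1 differed between DKO and Six3KO by 2.68 ± 0.22 (adjusted p = 0.004), Tfap2c by 3.61 ± 0.38 and Dbx1 by 6.40 ± 0.74 (adjusted p = 0.00607 and 0.00615), and Otx2 by -1.58 ± 0.14 (adjusted p = 0.0058). Nudt4 differed by 1.00 ± 0.11, the same size as against WT, and Egflam by -2.47 ± 0.25 (both adjusted p = 0.00607). Esr1 differed by -0.0027 ± 0.17 (adjusted p = 0.998). For Shh the difference from Six3KO was -2.41 ± 0.84 (adjusted p = 0.247), for Cdon 1.13 ± 0.23 (adjusted p = 0.0712) and for Col1a1 -4.87 ± 0.88 (adjusted p = 0.0521), none past the threshold. In DKO against Six3KO 78 genes were called in all (0.587%), 44 higher (0.331%) and 34 lower (0.256%).

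Tissue carried along with the retina differed between the groups and within WT. The summed level of 24 periocular mesenchyme genes was 2878, 631 and 3357 CPM in the WT libraries and 355, 456 and 378 CPM in DKO, so that rh023 stood nearest to DKO and no library overlapped. Over the 7 lists, edgeR called 0 of 115 members higher and 3 lower (Col1a1, Grhl3 and Kdr), against 0.639% of all genes lower. DESeq2 called 15 of 24 mesenchyme (62.5%), 8 of 18 surface ectoderm (44.4%) and 5 of 17 vessel genes (29.4%) lower. The share of all genes that DESeq2 called lower was 3.48%. Of lens, pigment epithelium and red blood cell genes it called 1 of 22, 1 of 14 and 0 of 6 lower. It called 2 of 14 macrophage genes (14.3%) higher, against 2.33% of all genes. At an unadjusted p under 0.05 edgeR had 18 mesenchyme, 15 surface ectoderm, 5 vessel and 8 macrophage genes, against 1728 of all 13292. Surface ectoderm was at 82.9 to 709 CPM in WT and 34.4 to 77.4 CPM in DKO, and vessels at 204 to 519 and 139 to 149 CPM. The vessel sum was mostly Kdr in rh023 (182 CPM of 204), and by the vessel score, which weights genes equally, rh023 (-2.21 from the WT mean) lay below all DKO libraries (-0.72 to -1.27), so the groups overlapped. Lens (56.0 to 1587 and 34.1 to 238 CPM), pigment epithelium (111 to 2434 and 271 to 819 CPM) and macrophage genes (38.2 to 87.9 and 70.6 to 181 CPM) overlapped between the groups. Red blood cell genes were at 722 to 2353 and 569 to 715 CPM, and by their score rh024 (-0.88) and rh010 (-0.73) overlapped. Up to 2 mesenchyme members were at 0 reads in a WT library, and Foxc2 was at 0 in rh023 and in rh021.

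P2ry12 and Aif1, genes of microglia, lay at the border of the call. P2ry12, a receptor, stood at 6.33, 6.01 and 5.99 CPM in WT and 15.1, 15.4 and 9.75 CPM in DKO (1.13 ± 0.22, adjusted p = 0.047), and was named after its values were seen. Aif1, just past the threshold, stood at 1.09, 1.16 and 0.765 CPM against 4.51, 5.55 and 2.38 CPM (adjusted p = 0.0515). The gene just inside among those that rose was Tbl1xr1 (adjusted p = 0.0494), and among those that fell Cdo1 lay just inside (0.0496) and Cxcr4 just outside (0.0518). With the macrophage score as a covariate 43 genes were called.

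**Figure D4:**
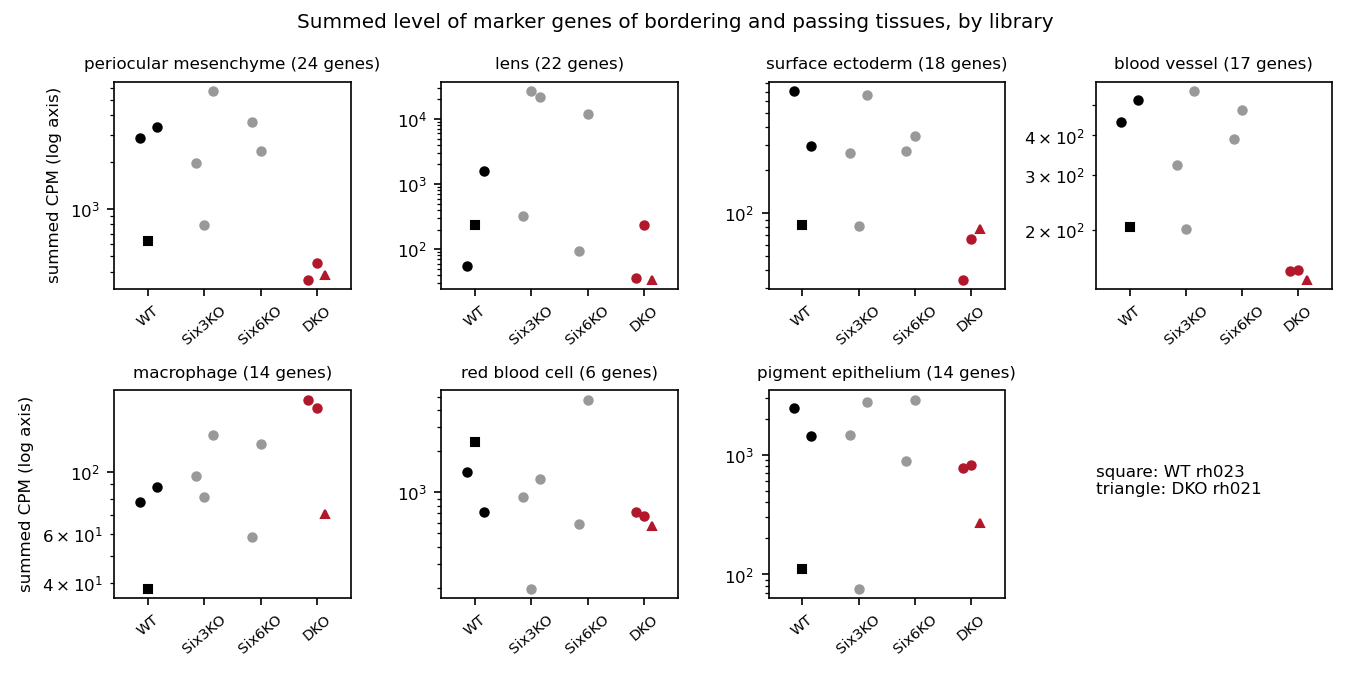
Summed CPM (log axes) of the marker genes of 7 tissues in each library of the 4 groups, with squares for WT library rh023 and triangles for DKO library rh021. Mesenchyme was lower in all DKO libraries (355 to 456 CPM) than in any WT library, of which rh023 was lowest at 631 CPM, and lens markers were highest in 3 single-mutant libraries.

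The 172 genes were also set against the WT library poorest in mesenchyme, as a description, since that library was among those that called them. Against rh023 alone, the median log2 difference of the DKO mean was 1.26 for the genes that rose and -1.77 for those that fell, close to 1.24 and -1.78 over all WT libraries, and 59 of 87 and 69 of 85 differed at least 2-fold. With the mesenchyme score as a covariate across all 11 libraries, 207 genes were called (114 higher and 93 lower), 88 of them among the 172. All 172, which were chosen on these same libraries, kept their direction. Over all genes, 943 were then at least 2-fold higher and 591 lower, in place of 357 and 973. Genes called in both fits included Filip1 (3.58 ± 0.30), Tfap2c (4.62), Otx2 (-1.66), Espn (-3.72) and Dio3 (-5.96). With the surface ectoderm score as a covariate 24 genes were called, with the mesenchyme and lens scores together 360, and with the blood vessel score 691.

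**Figure D5:**
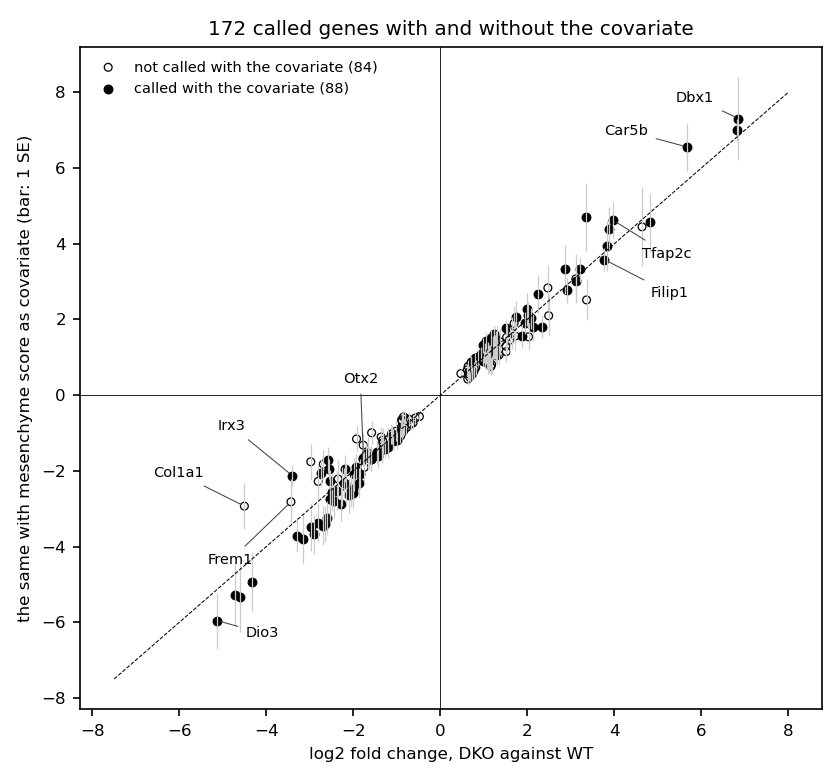
Log2 fold change of DKO against WT for the 172 called genes (horizontal axis) and the same with the mesenchyme score as a covariate (vertical axis, bars of 1 SE), with a dashed line where both are equal. Filled points are the 88 genes called in both fits. All points kept their sign, and Frem1, Irx3 and Col1a1, which contributes to the score, moved toward 0.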

How the data were processed

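Total RNA of mouse retinas was sequenced after removal of ribosomal RNA with a KAPA RNA HyperPrep kit, per the labels' protocols. A table of raw counts, with a gene symbol per row, was deposited by the authors, and its column headers give each library's group and name but no replicate number. The submitters' processing notes name Trim Galore 0.3.7, TopHat2 2.0.13, HTSeq 0.6.1, Cufflinks 2.2.1 and Cuffdiff and the build mm10. The sources used here do not give the gene annotation, the strand setting or any filter behind the table. Owing to duplicated reads, the design text states, 1 further Six6KO sample had been dropped.

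The counts were tested with edgeR 4.0.16 (R 4.3.3). The function filterByExpr chose the genes with a minimum count of 10, TMM factors scaled the libraries, and the 11 samples of the series were fitted together by robust quasi-likelihood with a mean for each group. A gene is called where its p, adjusted by Benjamini and Hochberg's method over all tested genes, is under 0.05. Dividing a log2 fold change by the square root of F gave its SE. The p-values measure the spread between these samples. Within WT and within DKO, any pair of libraries varied beyond counting error (9.85 to 45.1 in chi-square per degree of freedom), so none was counted as a repeat of another. Counts were simulated 3 times for all 11 libraries, with 200 genes changed in DKO among 13181 to 13189 tested. Of the changes, 51.2% of 2-fold, 83.6% of 4-fold and 90.9% of 8-fold were recovered, with 7 to 14 false calls. Each gene was drawn independently, with the same spread in all groups, so no carried-along tissue moved genes together. These rates may therefore not hold for the data, where WT varied more than DKO.

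Gene families and tissue markers were written as lists from general knowledge. The members of the comparison and the lists were chosen with earlier results of these data known. Named genes are Six3, Six6 and Esr1, then called genes of at least 5 CPM with no overlap between groups, namely the 10 higher and 10 lower with the largest difference of mean CPM and with the widest gap between nearest libraries, then, from every list, at most 2 called genes in order of p. Predicted, mitochondrial, small RNA and Y-linked genes were left out of the choice by size. Scores of carried-along tissue used as covariates are mean log2 CPM (prior count 2) of a list. The vessel and red blood cell scores printed by library are the mean log2 of CPM plus 0.5, less the WT mean. Of the tested symbols 97.9% matched 1 gene of GENCODE vM21 (GRCm38), which gave the positions, and promoter windows are from RefSeq (GRCm38.p6). Among called genes, 22 that rose and 22 that fell overlap exons of a gene on the opposite strand. Alternatives were relative log expression factors, no scaling factor, no filter, DESeq2 1.42.0, the 6 libraries alone, each library left out, a threshold of 0.1, and the mesenchyme, mesenchyme and lens, and surface ectoderm scores as covariates. The vessel and macrophage scores and a fit without 3 lens-rich single-mutant libraries were added after seeing the data.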

Additional observations from a re-analysis of the deposited data

How the results depend on the processing

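The direction of all 172 called genes was the same in each of the 17 alternative fits, but their number was not. These genes were chosen on the same libraries and had no overlap between groups, so a kept direction is not an independent check. Leaving out 1 library gave 20 to 205 called genes, 16 to 118 of them higher and 4 to 87 lower, and 19 genes were called in all 6 of these fits. DESeq2 called 773 (310 higher and 463 lower), the mesenchyme and lens scores together 360 (172 and 188), the surface ectoderm score 24 (17 and 7), the blood vessel score 691 (294 and 397), the macrophage score 43 (25 and 18), and a threshold of 0.1 called 336 (160 and 176). Without the 3 lens-rich single-mutant libraries 56 genes were called lower. The cause of these shifts was not tested, and the fits without a library also had fewer samples. Relative log expression factors, no scaling factor, no filter, the 6 libraries alone and the mesenchyme score gave 159 to 208 calls. The 6 libraries alone called 172, of which 114 were among the 172 of the fit with all groups. Of 64 named genes, most of them chosen on the same libraries, none changed sign. Of their values 708 lay on the same side of the threshold, 375 were no longer called and 5 were newly called. List medians moved by more than the spread between replicates in 104 of 714 cases. No paired analysis was possible because the columns carry no replicate numbers. Depth of at least 7807744 reads leaves genes near 1 CPM with few reads, and changes under 2-fold were often not detectable at this number of samples.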
